A study of Mus musculus with 12 samples.

Results

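The genes described here encode enzymes that remove or add methyl groups at lysine 9 of histone H3 (H3K9). There were 10 of them, out of 55401 genes in the count tables, and all 10 passed the filter that left 16540 genes for testing. They were chosen by name, with earlier results of these data known. The 6 demethylases were *Kdm3a*, the symbol that the tables give for *Jmjd1a*, with its relatives *Kdm3b* and *Jmjd1c*, and the KDM4 enzymes *Kdm4a*, *Kdm4b* and *Kdm4c*. The 4 methyltransferases were *Ehmt1*, *Ehmt2*, *Suv39h1* and *Setdb1*.

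RNA-seq was performed on subcutaneous white adipose tissue (scWAT) of 12 female mice, 1 library each. Wild-type mice (WT, *Jmjd1a* +/+) and *Jmjd1a* HY/HY mice, homozygous for a CRISPR knock-in of H1122Y that removes the catalytic activity of JMJD1A, were kept at 30°C (thermoneutral) or at 8°C (cold) for 1 week, with 3 mice in each of the 4 groups. All were on a C57BL/6J background, were 16 weeks old at the start of the exposure and had been held at 30°C beforehand. The knock-in comes from a single line and is present in every cell of the body, so that whole-tissue RNA joins adipocytes with the other cells of the depot. A point mutation leaves the gene's exons in place, and counts of *Kdm3a* therefore do not check the genotype. The question addressed is whether the mRNA of the other H3K9 enzymes differed when the activity of JMJD1A was missing.

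H3K9 methylation marks silent chromatin. EHMT2 (G9a) and EHMT1 (GLP) work as a pair and place the mono- and dimethyl marks of silent genes outside heterochromatin, whereas SUV39H1 and SETDB1 place the trimethyl mark of heterochromatin and repeats. JMJD1A and KDM3B remove mono- and dimethyl groups, the KDM4 enzymes remove tri- and dimethyl groups, and the activity of JMJD1C on this residue is debated. In fat tissue, cold acts through β-adrenergic signals to switch on thermogenic genes such as *Ucp1* in beige adipocytes, and JMJD1A takes part in that switch.

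Between 13592629 and 26352081 counts per library fell in genes, with the 6 libraries at 8°C the smallest. Individual members had between 114 (*Suv39h1*) and 4957 counts (*Ehmt2*). Skeletal muscle markers summed to 1334 CPM (counts scaled to a common library size by the trimmed mean of M-values, TMM) in WT replicate 2 at 30°C and to at most 24.1 CPM in every other library. Markers of mammary epithelium summed to 2065 to 3721 CPM in WT at 30°C and to 535 to 1526 CPM in the other groups, with *Wap*, the milk protein gene, at 0 to 2 counts. Proliferation markers summed to 107 to 181 CPM in WT at 8°C and to 67.5 to 90.6 CPM elsewhere. At 30°C white adipocyte markers summed to 14881 to 24809 CPM in WT and to 13138 to 37092 CPM in HY/HY. At 8°C they summed to 22285 to 29150 CPM in WT and to 27347 to 39439 CPM in HY/HY. The thermogenic ones summed to 7875 to 8787 CPM in WT at 8°C, 510 to 1618 CPM in HY/HY at 8°C and at most 228 CPM at 30°C. Fewer cells of a type and less RNA per cell cannot be told apart in such tissue samples.

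All 10 mRNAs were expressed in each of the 12 mice. To compare genes, levels were divided by the length of the gene's merged exons. *Ehmt2* stood first by this measure, at 34.3 ± 2.47 CPM per kb (SD, n = 3) in WT at 30°C, which was 3.46 times the length-scaled level of *Kdm3a*, the next gene. *Kdm3a* was at 9.92 ± 2.26 CPM per kb and *Kdm4a* at 7.97 ± 0.972 CPM per kb, with overlapping libraries. *Kdm4b* (6.33), *Ehmt1* (6.25), *Setdb1* (5.57) and *Kdm3b* (4.82 CPM per kb) followed, of which *Kdm4b* and *Ehmt1* overlapped, as did *Ehmt1* and *Setdb1*. At the low end *Kdm4c* was at 3.39 ± 0.0584, *Jmjd1c* at 2.63 ± 0.421 and *Suv39h1* at 2.26 ± 0.131 CPM per kb, and the last pair overlapped. With the longest coding transcript as length, *Ehmt2* was still 4.61 times *Kdm3a*, but *Ehmt1* stood above *Kdm4b* and the libraries of *Kdm3b*, *Kdm4c* and *Jmjd1c* overlapped from one gene to the next. The plot of length-scaled levels gives the values in all 4 groups, and the order of overlapping neighbours was not the same in each: in HY/HY at 30°C *Suv39h1* (2.47 CPM per kb) stood above *Jmjd1c* (2.45), and in WT at 8°C *Ehmt1* (5.55) stood above *Kdm4b* (5.11).

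**Figure D1:**
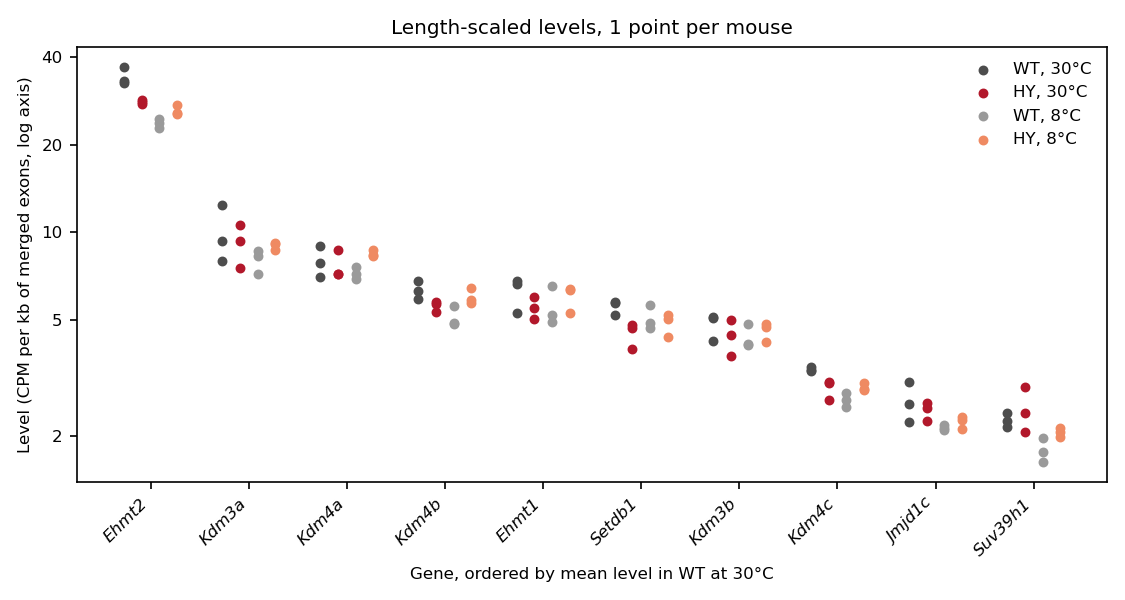
Length-scaled level (CPM per kb of merged exons, log axis) of each gene, 1 point per mouse, with 4 columns of 3 mice per gene. *Ehmt2* lies between 22.8 and 37.1 CPM per kb in all 12 mice, above every library of the other 9 genes.

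*Kdm3a* itself (ENSMUSG00000053470.13, chromosome 6 from 71588970 to 71632990, mm10) was not called different between the genotypes at either temperature. In WT at 30°C the 3 mice had 46.4, 61.6 and 39.8 CPM, and in HY/HY at 30°C 52.6, 46.4 and 37.4 CPM. At 8°C the values were 35.6, 42.9 and 41.1 CPM in WT and 45.8, 43.1 and 45.3 CPM in HY/HY. The highest value was that of WT replicate 2 at 30°C, the muscle-rich library, and the 30°C groups overlapped. At 8°C each HY/HY mouse lay above each WT mouse, as in 16.4% of all genes, with 43.1 against 42.9 CPM at the nearest. The log2 fold change of HY/HY against WT was −0.12 (95% interval −0.47 to 0.23, adjusted p = 0.753, edgeR quasi-likelihood test) at 30°C and 0.17 (−0.19 to 0.52, adjusted p = 0.604) at 8°C. Thus an mRNA difference of more than about 1.5-fold lies outside both intervals. By cold it changed by −0.31 in WT (adjusted p = 0.186), and by −0.11 (adjusted p = 0.645) with the muscle-rich library left out, and by −0.02 in HY/HY (adjusted p = 0.963).

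**Figure D2:**
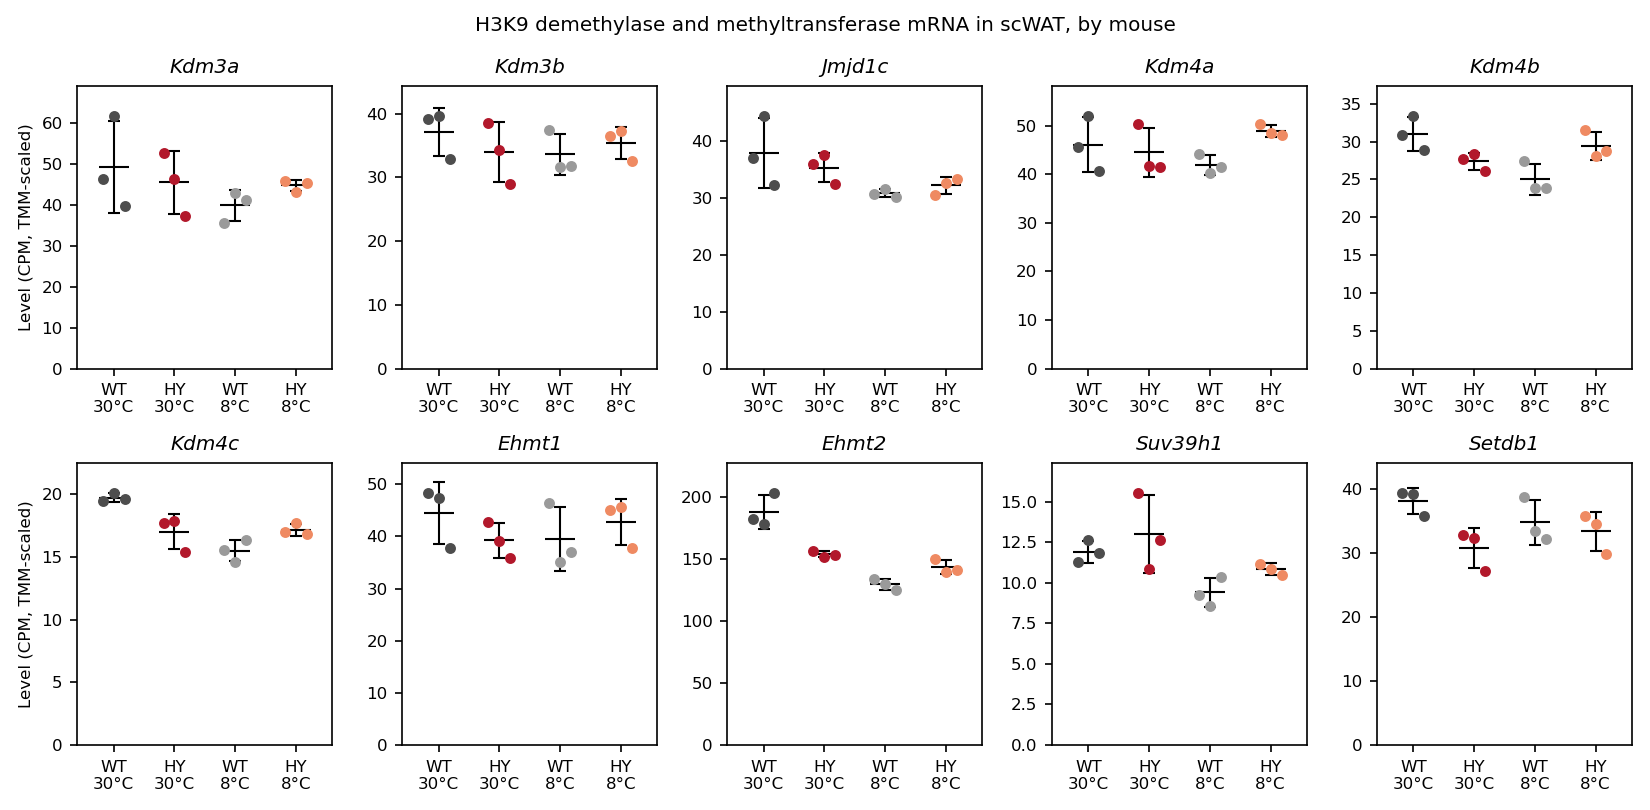
Level (CPM, axis from 0) of each of the 10 genes by group, with 1 point per mouse and the mean ± SD of 3 mice in black. The *Ehmt2* panel shows 4 groups that do not overlap, from 179 to 204 CPM in WT at 30°C down to 125 to 134 CPM in WT at 8°C.

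No member was called different between the genotypes at 30°C at an adjusted p under 0.05, where 1.06% of all genes tested were; DESeq2 called 1 member, *Ehmt2*, and 5.73% of all genes. At an unadjusted p under 0.05 there were 2 members (18.6% of all genes), *Ehmt2* and *Setdb1*, both lower in HY/HY. Of the 10 log2 fold changes, 9 were negative and that of *Suv39h1* was positive (49% of all genes were positive), with a median of −0.15 against −0.01 over all genes. Some members varied together between mice of a group, so the directions given here and below are not independent observations.

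Among the relatives of *Jmjd1a* at 30°C, *Kdm3b* had 39.1, 39.6 and 32.8 CPM in WT and 38.6, 34.3 and 29.0 CPM in HY/HY, a log2 fold change of −0.13 (95% interval −0.40 to 0.14). *Jmjd1c* had 36.9, 44.3 and 32.2 CPM in WT and 35.8, 37.5 and 32.4 CPM in HY/HY, a log2 fold change of −0.10 (−0.35 to 0.15). Both pairs of groups overlapped. The KDM4 mRNAs had log2 fold changes of −0.05 (*Kdm4a*), −0.18 (*Kdm4b*) and −0.21 (*Kdm4c*), and for *Kdm4b* and *Kdm4c* the HY/HY mice all lay below the WT mice.

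Of the methyltransferases, *Ehmt2* (ENSMUSG00000013787.15, chromosome 17 from 34898463 to 34914073) had 182, 179 and 204 CPM in WT at 30°C and 157, 152 and 154 CPM in HY/HY. All HY/HY mice were below all WT mice, as were 10.6% of all genes. The log2 fold change was −0.29 ± 0.09 (SE), with an adjusted p of 0.142 by edgeR and of 0.0165 by DESeq2. *Setdb1*, which places the trimethyl mark, had 39.4, 39.3 and 35.7 CPM in WT and 32.9, 32.3 and 27.3 CPM in HY/HY, again without overlap, and a log2 fold change of −0.31 ± 0.11 (adjusted p = 0.182). *Ehmt2*, *Setdb1*, *Kdm4b* and *Kdm4c* were the 4 members whose groups did not overlap here. *Ehmt1*, the partner of *Ehmt2*, changed by −0.18 (adjusted p = 0.515) and *Suv39h1* by 0.13 (adjusted p = 0.684). The summed mammary epithelium markers were also lower in all HY/HY mice than in all WT mice at 30°C. Gene by gene this held for 2 of the 7 mammary markers tested. The part of these markers in the values above was not tested.

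At 8°C again no member was called by edgeR (7.36% of all genes were) or by DESeq2, and 1 member, *Kdm4b*, had an unadjusted p under 0.05 (22.4% of all genes). The direction was mostly the other way, with 9 of the 10 log2 fold changes positive (51.3% of all genes) and a median of 0.15 against 0.01 over all genes. In 6 members each HY/HY mouse lay above each WT mouse, namely *Kdm3a*, *Kdm4a*, *Kdm4b*, *Kdm4c*, *Ehmt2* and *Suv39h1*, and this was so for 16.4% of all genes.

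*Kdm4a*, a demethylase of trimethylated H3K9, had 44.2, 40.2 and 41.6 CPM in WT at 8°C and 50.3, 48.5 and 48.0 CPM in HY/HY. Its log2 fold change was 0.22 ± 0.11 (adjusted p = 0.265). *Kdm4b* had 27.4, 23.8 and 23.9 CPM in WT and 31.6, 28.0 and 28.7 CPM in HY/HY, with a log2 fold change of 0.23 ± 0.10 (adjusted p = 0.195). *Kdm4c* changed by 0.15 (adjusted p = 0.445). The groups of all 3 did not overlap, but by no more than 1.18-fold in the mean, and none passed the test under any of the alternatives.

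*Kdm3b* had 37.3, 31.6 and 31.8 CPM in WT at 8°C and 36.4, 37.3 and 32.5 CPM in HY/HY, and *Jmjd1c* 30.6, 31.5 and 30.2 CPM in WT and 30.5, 32.5 and 33.3 CPM in HY/HY. Their libraries overlapped, and the log2 fold changes were 0.08 (95% interval −0.20 to 0.35) and 0.06 (−0.19 to 0.32). *Ehmt2* changed by 0.15 (adjusted p = 0.403), *Ehmt1* by 0.12 (0.679), *Suv39h1* by 0.20 (0.464) and *Setdb1* by −0.06 (0.817).

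Over the 10 genes the outermost bounds of the 95% intervals for HY/HY against WT were 0.681-fold (*Setdb1*) and 1.35-fold (*Suv39h1*) at 30°C, and 0.809-fold (*Setdb1*) and 1.44-fold (*Suv39h1*) at 8°C. These intervals are not adjusted for the number of genes. Changes beyond them were thus not seen in any member, and changes inside each gene's interval were not resolved with 3 mice a group. The whole interval was on the lower side for *Ehmt2* and *Setdb1* at 30°C and on the higher side for *Kdm4b* at 8°C, but edgeR called none of these. With both temperatures averaged no member was called either by edgeR (8.12% of all genes were) or by DESeq2, and 1 had an unadjusted p under 0.05 (26.1% of all genes), *Setdb1* at −0.18 ± 0.08 (adjusted p = 0.174). Macrophage markers summed to 127 to 169 CPM in WT and to 189 to 328 CPM in HY/HY mice, above WT in every mouse, and their part in the differences between the genotypes was not tested.

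Cold lowered *Ehmt2*, *Kdm4c* and *Kdm4b* in WT mice (DESeq2 called the first pair), and these 3 were the only calls among the members in any comparison by edgeR at an adjusted p under 0.05. In this comparison 24.1% of all genes were called, 10.9% in the lower direction. All 10 members had a negative log2 fold change (44.3% of all genes had a positive one), with a median of −0.30 against −0.07 over all genes. In 5 members, the 3 called ones with *Jmjd1c* and *Suv39h1*, each mouse at 8°C lay below each mouse at 30°C, as did 22.7% of all genes.

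*Ehmt2* went from 182, 179 and 204 CPM at 30°C to 134, 130.4 and 125 CPM at 8°C. The lowest mouse at 30°C was above the highest at 8°C. The log2 fold change was −0.53 ± 0.09 (95% interval −0.74 to −0.33, adjusted p = 0.00224), a level at 8°C of 0.691 times that at 30°C. The call was made under all 20 alternative fits, with a highest adjusted p of 0.0157, but a limit of 1.5-fold on the size of the change would leave it out.

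*Kdm4c* (ENSMUSG00000028397.13, chromosome 4 from 74242497 to 74405864) went from 19.5, 20.1 and 19.6 CPM to 15.5, 14.6 and 16.3 CPM, a log2 fold change of −0.35 ± 0.10 (adjusted p = 0.0281). *Kdm4b* (ENSMUSG00000024201.12, chromosome 17 from 56325970 to 56403774) went from 30.8, 33.3 and 28.8 CPM to 27.4, 23.8 and 23.9 CPM, a log2 fold change of −0.31 ± 0.10 (adjusted p = 0.0427). Neither pair of groups overlapped. Both calls were lost without WT replicate 1 or 2 at 30°C and without WT replicate 2 or 3 at 8°C, with adjusted p-values of 0.0577, 0.0794, 0.113 and 0.0523 for *Kdm4c* and 0.0892, 0.153, 0.151 and 0.143 for *Kdm4b*. That of *Kdm4c* was also lost without WT replicate 1 at 8°C (0.0767), and that of *Kdm4b* without HY/HY replicate 2 at 30°C (0.0533) or HY/HY replicate 1, 2 or 3 at 8°C (0.0563, 0.0605 and 0.0597).

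Of the others, *Jmjd1c* went from 36.9, 44.3 and 32.2 CPM to 30.6, 31.5 and 30.2 CPM (log2 fold change −0.30 ± 0.12, adjusted p = 0.079). Its adjusted p was 0.0196 without WT replicate 3 at 30°C and 0.319 without WT replicate 2 at 30°C, the muscle-rich library. *Suv39h1*, the least abundant mRNA, went from 11.3, 12.6 and 11.8 CPM to 9.28, 8.59 and 10.4 CPM (−0.34 ± 0.15, adjusted p = 0.109). *Setdb1* (−0.13), *Kdm4a* (−0.14), *Kdm3b* (−0.15) and *Ehmt1* (−0.17) had overlapping groups. Scaling by library totals in place of TMM moved the median of all genes from −0.07 to −0.41 and called 8 of the 10 members lower, all but *Kdm3b* and *Ehmt1*, in a fit that called 34.4% of all genes lower. The median of the members then lay at −0.65, so that it was below that of all genes by a similar distance under both scalings. The summed mammary epithelium markers were lower and the summed proliferation markers higher in all WT mice at 8°C than in all WT mice at 30°C. Gene by gene this held for 4 of the 7 mammary markers tested and for 5 of the 8 proliferation markers. The part of either set in these changes was not tested.

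In HY/HY mice no member was called by cold with edgeR (0.254% of all genes were) or with DESeq2, and 0 had an unadjusted p under 0.05 (14.7% of all genes). With the replicate number as a block, by which the HY/HY libraries of both temperatures deviated together, 0 members and 1.04% of all genes were called. The 10 log2 fold changes had a median of 0.03 against −0.01 over all genes and ran from −0.26 (*Suv39h1*) to 0.14 (*Kdm4a*). *Ehmt2* had 157, 152 and 154 CPM at 30°C and 150.3, 140.1 and 141 CPM at 8°C, the only member without overlap (8.99% of all genes were lower without overlap), and its log2 fold change was −0.10 ± 0.09 (adjusted p = 0.654). *Kdm4c* changed by 0.01 and *Kdm4b* by 0.10.

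Whether the cold response differed between the genotypes was tested by the interaction, the log2 fold change by cold in HY/HY minus that in WT. No member was called (2.24% of all genes were), and 3 had an unadjusted p under 0.05 (15% of all genes). These were *Ehmt2* at 0.43 ± 0.13 (adjusted p = 0.136), *Kdm4b* at 0.41 ± 0.14 (0.187) and *Kdm4c* at 0.36 ± 0.14 (0.26), the genes that cold lowered in WT. For *Ehmt2*, DESeq2 gave a difference of 0.40 with an adjusted p of 0.0131, in a fit that called 4.88% of all genes. All 10 differences were positive (54.4% of all genes), with a median of 0.28 against 0.04 over all genes. A cold response of these 3 genes that is particular to WT was therefore not established by edgeR, and for *Ehmt2* the call depended on the test used. The plot of differences places the 5 comparisons side by side. They share libraries and are not independent of each other.

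**Figure D3:**
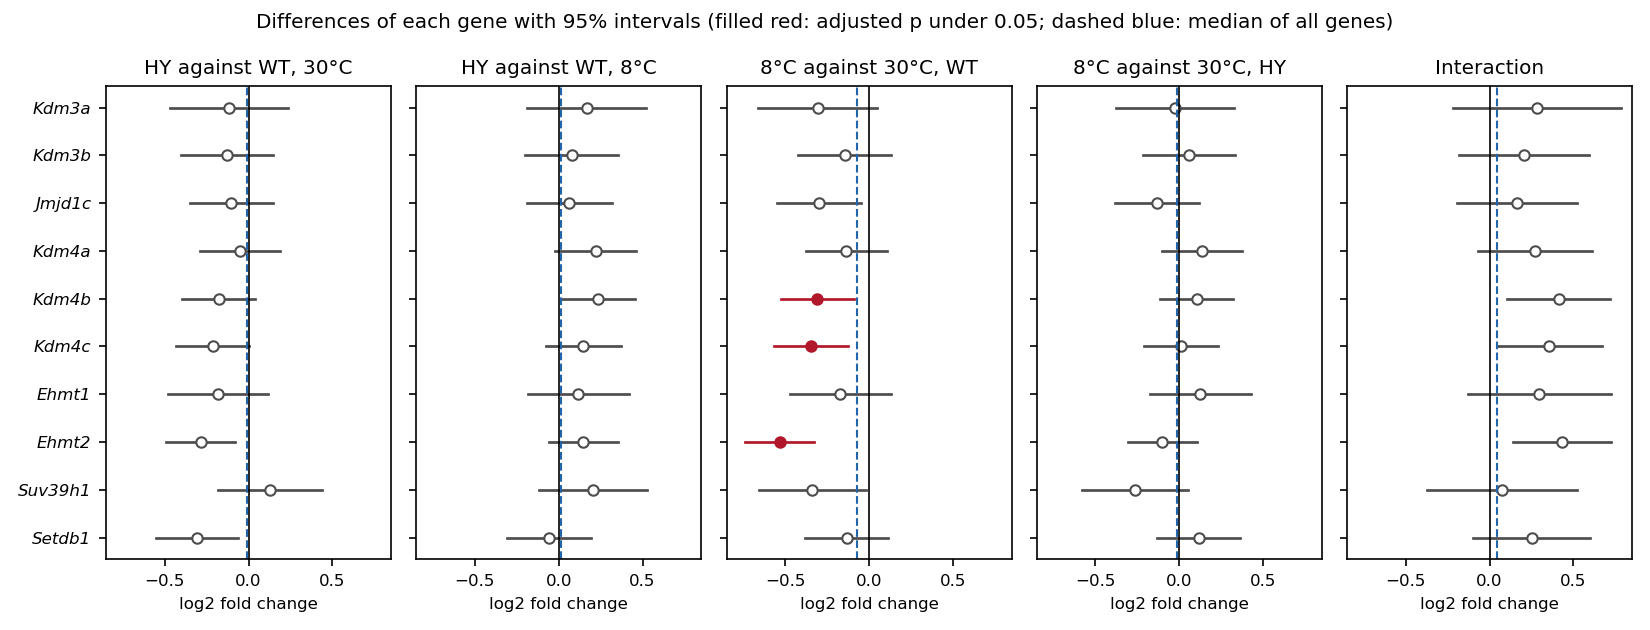
Log2 fold change of each gene (point) with its 95% interval (line) in 5 comparisons. Filled red points mark an adjusted p under 0.05 by edgeR, and the dashed line is the median over all 16540 genes. The 3 red points, *Ehmt2* at −0.53, *Kdm4c* at −0.35 and *Kdm4b* at −0.31, all lie in the panel of cold in WT mice.

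For the members that fell together by cold in WT, the sequence before the start sites was read. RefSeq start sites on GRCm38.p6 (mm10) were held for 8 of the 10 members, *Kdm4b* not among them. The 250 bases before each of the 14 starts were searched on both strands for the CCAAT box, the GC box GGGCGG, the E-box CACGTG and the cAMP response element TGACGTCA, 4 motifs chosen with the sequences in view. The palindrome CACGTG is the core of a site bound by basic helix-loop-helix factors such as USF1, TFEB and MYC. It was found in the stretches searched for *Ehmt2* and *Kdm4c* and not in those of the other 6 members. Each copy is shown with 12 bases on either side, the motif in capitals, on the plus strand, which is the strand of both genes.
Ehmt2, first start, chr17:34898230-34898259: aggctcaggctaCACGTGttcccaaaaccg
Ehmt2, first start, chr17:34898436-34898465: tccctccttgtcCACGTGacccggggcggc
Ehmt2, second start, chr17:34898722-34898751: ggcgccgagtcgCACGTGccgccgcccgct
Kdm4c, second start, chr4:74251782-74251811: agtttagagaccCACGTGacccagagagcg
Kdm4c, second start, chr4:74251814-74251843: cggcccagcggtCACGTGggggcgcgtgcg
The motif begins 232 and 26 bases before the first start of *Ehmt2*, and 85 and 53 bases before the second start of *Kdm4c*. Of 32851 such stretches in the table, 6.02% held CACGTG and 0.429% held it at least 2 times. Since the motifs were chosen with the sequences in view, these shares cannot test a link between CACGTG and the fall by cold. The first start of *Kdm4c* held no copy, and *Jmjd1c* and *Suv39h1*, which also fell without overlap, had none in the stretches searched. Both stretches of *Jmjd1c* lie inside the gene, ending at 67127087 and 67185749, whereas the gene begins at 67096351 on chromosome 10. The bases before that position were not searched. GGGCGG was found before *Ehmt2* (32.7% of all stretches) but not before *Kdm4c*, CCAAT (33.8%) before neither, and TGACGTCA (1.55%) before none of the members. A match of letters is a description and does not show binding.

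Further enzymes and partners of the same mark were taken from 4 lists. Of the other H3K9 demethylases, 5 of 6 were tested (*Kdm4d* was too low), and *Phf8*, a demethylase of mono- and dimethylated H3K9, was higher in HY/HY mice. It had 19.1, 18.5 and 16.8 CPM in WT and 29.1, 24.4 and 27.2 CPM in HY/HY at 8°C. Each HY/HY mouse thus lay above each WT mouse, as in 16.4% of all genes. The log2 fold change was 0.57 ± 0.14 (adjusted p = 0.0276) at 8°C, 0.34 ± 0.13 (0.204) at 30°C and 0.46 ± 0.10 (0.0177) over both. Of all genes, 7.36% were called at 8°C and 8.12% over both temperatures. The call at 8°C was lost without WT replicate 1, 2 or 3 at 8°C (adjusted p of 0.065, 0.0839 and 0.111) and without HY/HY replicate 1 or 3 at 8°C (0.107 and 0.0905), while the averaged one was made under all 19 alternatives. *Kdm1a* (LSD1) fell by cold in WT, from 71.1, 70.5 and 53.8 CPM to 47.5, 46.6 and 46.8 CPM (log2 fold change −0.47 ± 0.13, adjusted p = 0.0257), where 10.9% of all genes were called lower. That call was lost without WT replicate 1 or 2 at 30°C (0.0868 and 0.0929) or WT replicate 1, 2 or 3 at 8°C (0.0697, 0.0818 and 0.0791). None of the 5 other H3K9 methyltransferases (*Suv39h2*, *Setdb2*, *Prdm2*, *Prdm16* and *Mecom*) was called in any comparison by edgeR or DESeq2. By cold in WT 2 of them had an unadjusted p under 0.05, where at least 5861 of all 16540 genes did. At most 1 did in any other comparison, where 14.7% to 26.1% of all genes did.

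Of 14 partners and readers of H3K9 methylation, cold in WT lowered 3 and raised 1, where 24.1% of all genes were called and 10.9% were called lower. *Trim28*, which brings SETDB1 to its targets, went from 129.6, 123 and 138 CPM to 95.8, 87.2 and 90.9 CPM (log2 fold change −0.51 ± 0.12, adjusted p = 0.0126, and 0.0586 without WT replicate 2 at 8°C). *Atf7ip*, which stabilises SETDB1, went from 45.6, 54.2 and 43.3 CPM to 37.6, 32.1 and 31.2 CPM (−0.51 ± 0.11, adjusted p = 0.00765). *Wiz*, a partner of EHMT1 and EHMT2, went from 41.7, 41.5 and 39.3 CPM to 34.5, 30.7 and 33.8 CPM (−0.31 ± 0.09, adjusted p = 0.0275). The call of *Wiz* was lost without WT replicate 1 or 2 at 30°C (0.0776 and 0.086) or WT replicate 1, 2 or 3 at 8°C (0.0547, 0.123 and 0.0704).

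*Uhrf1*, which reads methylated H3K9 at replicating DNA, was the gene that rose. It went from 5.07, 4.50 and 3.24 CPM to 13.4, 7.91 and 12.05 CPM by cold in WT (log2 fold change 1.38 ± 0.29, adjusted p = 0.00614). In HY/HY it had 2.91, 5.43 and 2.76 CPM at 8°C, below WT in all mice (−1.58 ± 0.30, adjusted p = 0.0103, and 0.0555 and 0.0569 without HY/HY replicate 1 or 3 at 8°C). With both temperatures averaged it was lower by −1.07 (adjusted p = 0.0142). Between the genotypes 7.36% of all genes were called at 8°C and 8.12% over both temperatures. The proliferation markers had the same pattern, with 6 of 8 higher by cold in WT and 6 of 8 lower in HY/HY at 8°C, and their part in the values of *Uhrf1* was not tested.

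Of 12 JmjC enzymes of other substrates, *Kdm5b*, a demethylase of H3K4, fell by cold in WT from 45.7, 50.1 and 33.9 CPM to 31.7, 28.9 and 27.1 CPM (−0.56 ± 0.17, adjusted p = 0.0303), where 10.9% of all genes were called lower. This call was lost without WT replicate 1 or 2 at 30°C (0.0853 and 0.118) or WT replicate 1, 2 or 3 at 8°C (0.0558, 0.0903 and 0.108). *Jmjd6*, a hydroxylase, was lower in HY/HY over both temperatures (−0.31 ± 0.08, adjusted p = 0.0364), where 8.12% of all genes were called. The call was made under only 8 of 19 alternatives. It was lost without any 1 of the 6 libraries at 8°C, WT replicate 1 or 3 at 30°C or HY/HY replicate 1 at 30°C (adjusted p of 0.0627 to 0.102). DESeq2, which called 13.5% of all genes over both temperatures, also called *Riox1*. By edgeR this gene, named here after its values were seen, was not called (−0.42 ± 0.12, adjusted p = 0.0571). No gene of the 4 lists was called by cold in HY/HY or in the interaction, by edgeR or by DESeq2. The plot of related genes gives each mouse.

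**Figure D4:**
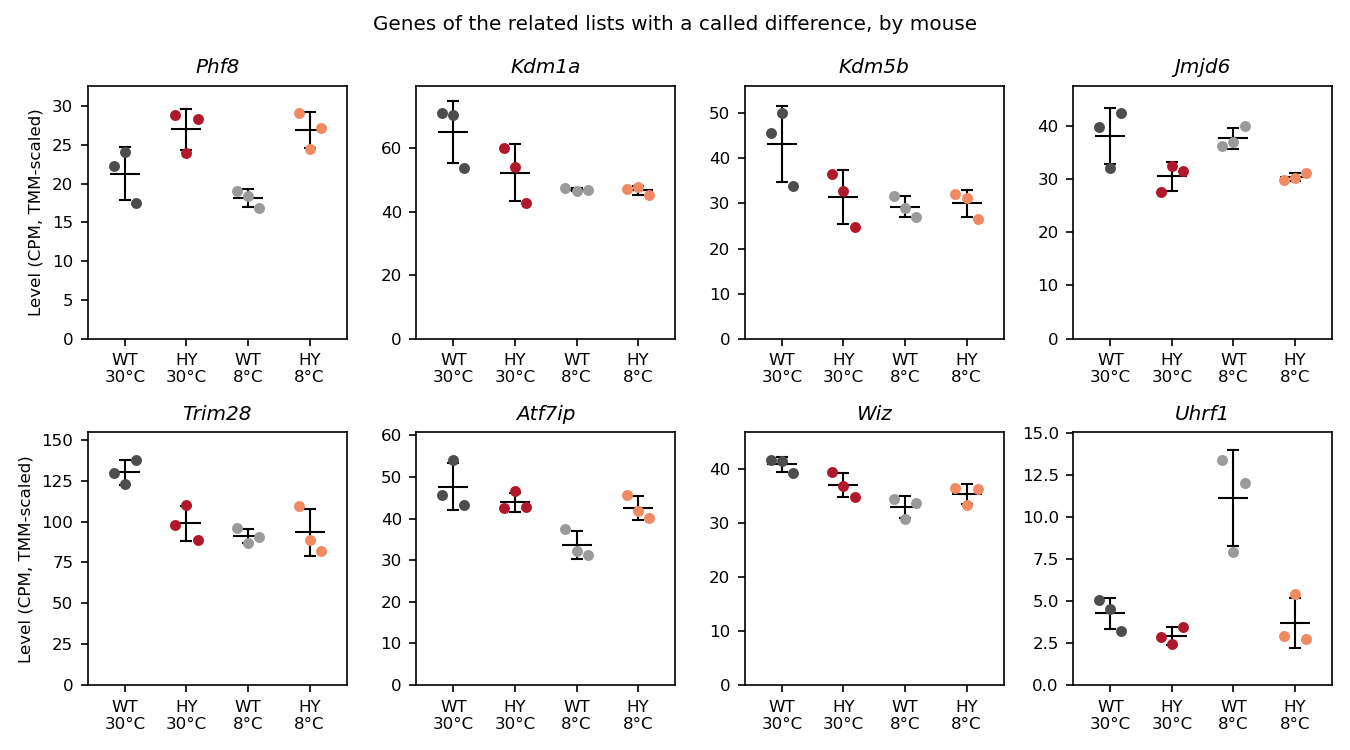
Level (CPM, axis from 0) of the 8 genes of the related lists that were called in at least 1 comparison, 1 point per mouse with the mean ± SD of 3 mice. *Phf8* is higher in HY than in WT at 8°C, *Uhrf1* stands out in WT at 8°C, and *Trim28*, *Atf7ip* and *Wiz* are lower in WT at 8°C than in WT at 30°C.

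Across the 12 libraries, the genes outside the lists whose log2 CPM followed that of *Kdm3a* most closely, of 9454 with a mean of at least 10 CPM, were *2610301B20Rik* (Pearson r = 0.912), *Tmem158* (0.902), *Rnf103* (0.9), *Tcp11l2* (0.887) and *Rsrc2* (0.884). With any 1 library left out the r of *2610301B20Rik* stayed between 0.886 and 0.939, and that of the other 4 was lowest without the muscle-rich library, down to 0.793 for *Rsrc2*. Among the members, *Jmjd1c* had an r of 0.823 with *Kdm3a*, and 0.83 after the group means were taken out. On that measure *Kdm3b* had an r of 0.92 with *Ehmt1* and with *Setdb1*, while *Ehmt2* had −0.72 with *Jmjd1c*. The points are tissue libraries that differ in makeup and depth, and the values are a description.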

How the data were processed

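RNA of scWAT was sequenced as paired-end 50-base reads. The authors used FastQC and fastp before alignment by STAR to mm10, and deposited raw read counts per gene (GENCODE M25) for each library as STAR gives them, with 1 column per strand setting; versions are not given in the sources used here. The sense-strand counts were used, since 95.5% to 96.2% of gene-assigned counts fell there. The 4 rows that name no gene, which hold the unmapped (25.1% to 28.8% of read pairs), multimapping (26.7% to 32.2%), unassigned (1.99% to 3.2%) and ambiguous (0.93% to 1.1%) reads, were left out of library sizes and tests. Reads in more than one gene's exons are not counted, which can touch *Jmjd1c* (span overlapping *Reep3*, *Gm46228* and *Gm26359*), *Setdb1* (*Cers2*), *Kdm4b* (*Gm32715*) and *Kdm4a* (*Gm23382*). Antisense reads made up at most 4.31% of a member's reads.

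Groups came from the sample titles. Counts were tested with edgeR 4.0.16 (R 4.3.3) in its quasi-likelihood framework, with TMM scaling, filterByExpr and 1 mean per group over all 12 libraries (8 residual degrees of freedom), for 6 contrasts. P-values were adjusted by Benjamini-Hochberg over all 16540 genes and called at 0.05. Each p-value sets a difference against the spread between mice within groups, pooled over all 4 groups and moderated across genes. Libraries of 1 group differed by more than counting noise (chi-square of 10.8 to 176.2 per gene), so none was counted as a repeat. Gene positions and start sites are those of RefSeq for GRCm38.p6, and exon lengths those of GENCODE M1. Alternatives were DESeq2 1.42.0, library totals, mitochondrial genes left out, no filter, at least 10 counts in every library, both strands, only the compared libraries, a 1.5-fold limit, the replicate number as a block, and each library left out. Same-numbered libraries of HY/HY at 30°C and 8°C deviated from their group means together in 3 of 3 pairs (correlations of 0.11 to 0.30). In every other combination of groups at least 1 pair was under 0.1. The main fit paired no libraries, and the block alternative used the replicate number in all 4 groups. The script was tested on simulated data.

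The members and lists were chosen with earlier results of these data known. All 10 members are named, as is each gene of the 4 other lists that edgeR called in any comparison, at most 6 a list, and the 5 genes most correlated with *Kdm3a*. Marker lists were summed per library. Lymphocyte markers summed to 3.75 to 21.7 CPM, erythrocyte markers (3 of 5 matched) to 95.9 to 346 CPM and macrophage markers to 127 to 328 CPM.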

Additional observations from a re-analysis of the deposited data

How the results depend on the processing

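Members called between the genotypes at 8°C, over both temperatures and by cold in HY/HY numbered 0 under every alternative run. DESeq2 called 1 member (*Ehmt2*) between the genotypes at 30°C and 1 (*Ehmt2*) in the interaction, where every other alternative called 0. Of the 3 members called by cold in WT (24.1% of all genes were), a limit of 1.5-fold left 0. No filter on low counts left 1 (11.9% of all genes), a fit on only the libraries compared left 1 (26.1%), and library totals gave 8 (42.3%). The other settings gave 2 (DESeq2, 27%) or 3 (23.6% to 29%). With each library left out in turn, 1 to 4 members were called by cold in WT, in fits that called 13.4% to 27.8% of all genes. The counts of the other comparisons stayed at 0. For no filter the larger number of genes tested, and for the compared libraries the smaller number of samples, is part of the setting; otherwise the cause was not tested. Over the 60 member results and 1180 alternatives, 18 calls were lost, 8 were gained and 0 changed direction as a call, and 39 values that were called under neither setting changed sign. With library totals, 734 of 1309 calls between the genotypes at 8°C were higher, against 316 of 1217 with TMM.

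The titles give the same replicate numbers in each group. Of 18 same-number pairs, 11 had deviations from the group means that correlated above 0.1 (range −0.07 to 0.35). Among the libraries of other groups, 7 of 12 libraries correlated best with one of their own number. What the numbers stand for is not given, and whether they mark anything shared was not tested. The replicate block called 3 members by cold in WT and 0 in every other comparison. Over all genes it moved the calls between the genotypes from 175 to 611 at 30°C, from 1217 to 1632 at 8°C and from 1343 to 2020 over both, those by cold from 3990 to 4794 in WT and from 42 to 172 in HY/HY, and those in the interaction from 370 to 526. With 3 mice a group, changes inside the 95% intervals given for each gene were not resolved.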
